A study of Mus musculus with 8 samples.

Results

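The genes described here are 42 regulators of pre-mRNA splicing, taken by symbol from the 26146 genes of the count table. They are 12 SR proteins, 11 SR-related proteins, 6 kinases that act on them, 10 hnRNPs and 3 tissue regulators of splicing. Tra2a and Tra2b, which are SR-like, are counted among the SR proteins. All 42 were found, and all 42 were among the 13439 genes that passed the filter on low counts. They were measured by bulk sequencing of polyA RNA in sorted Lin-Sca1+Kit+ (LSK) cells, the bone marrow fraction that holds haematopoietic stem cells and early multipotent progenitors, with 1 library from each of 4 wild type and 4 Jmjd6 KO mice. In the Jmjd6 KO mice a floxed Jmjd6 had been deleted in the haematopoietic lineages by Cre. The labels do not name the Cre driver or the age and sex of the mice, nor say whether the wild type mice carried Cre or the floxed allele.

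SR proteins bind exonic enhancers through RNA recognition motifs and recruit the splicing machinery through a tail rich in arginine and serine, the RS domain. SRPK kinases load phosphate onto that tail mostly in the cytoplasm and CLK kinases mostly in the nucleus, which controls where SR proteins sit and how active they are. hnRNPs coat nascent transcripts and often silence exons that SR proteins promote. Jmjd6 is a 2-oxoglutarate-dependent oxygenase reported to hydroxylate lysines of splicing proteins with RS domains, U2AF65 and LUC7-like proteins among them. Many genes of these families tune their own mRNA by including exons with an early stop codon or by keeping an intron, and such transcripts are decayed or held in the nucleus. A count per gene cannot tell these isoforms apart, so the values below are totals over all transcripts of a gene.

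RS domains can be read from the coding sequence as serine codons next to arginine codons. In the longest annotated coding sequence of each gene (GENCODE M21, GRCm38), such neighbours stood at a median of 16.7 per 100 codons in the SR proteins, 7.28 in the SR-related proteins, 2.49 in the kinases, 0.994 in the hnRNPs and 0.585 in the tissue regulators. The classes overlapped: the SR proteins ranged from 4.05 to 23.5, the SR-related proteins from 0.835 to 13.4, the kinases from 0.309 to 4.2 and the hnRNPs from 0.274 to 2.55. The median of the 21760 annotated coding genes was 0.729. Srsf2 had the highest density of them all, at 23.5, and 20 of the 42 genes, 11 of them SR proteins, were among the top 100. Srsf9, with a short tail, was the SR protein with the lowest density, at 4.05. The stretches below show the longest strictly alternating run of serine and arginine codons in 7 genes, with 30 coding bases on either side where the coding sequence reaches that far. They are shown to compare long and short runs between classes, and capitals mark the alternating run.
Srsf2: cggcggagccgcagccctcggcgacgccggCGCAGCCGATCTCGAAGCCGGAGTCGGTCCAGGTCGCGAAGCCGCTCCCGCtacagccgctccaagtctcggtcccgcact
Srsf1: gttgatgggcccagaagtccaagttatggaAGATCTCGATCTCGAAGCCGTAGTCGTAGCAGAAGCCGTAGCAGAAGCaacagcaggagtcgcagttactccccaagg
Srsf7: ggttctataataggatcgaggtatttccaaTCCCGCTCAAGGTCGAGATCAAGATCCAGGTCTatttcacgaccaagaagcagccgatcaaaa
Zranb2: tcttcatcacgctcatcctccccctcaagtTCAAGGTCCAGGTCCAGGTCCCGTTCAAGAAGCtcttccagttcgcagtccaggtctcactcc
Luc7l: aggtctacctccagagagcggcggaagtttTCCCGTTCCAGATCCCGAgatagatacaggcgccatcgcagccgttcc
Snrnp70: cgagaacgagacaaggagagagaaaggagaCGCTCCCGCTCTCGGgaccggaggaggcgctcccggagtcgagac
Clk3: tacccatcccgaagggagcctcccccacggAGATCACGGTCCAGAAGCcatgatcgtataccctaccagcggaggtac
The run held 17 codons in Srsf2, 16 in Srsf1, 11 each in Srsf7 and Zranb2, 6 each in Luc7l and Clk3 and 5 in Snrnp70. In Clk3 it lay at codons 194 to 199 of 638 and in Snrnp70 at codons 256 to 260 of 448, away from the end of the protein. No hnRNP had a run over 3 codons. In the SR proteins not shown, the longest run went from 5 codons in Srsf9 to 13 in Srsf6, so run lengths overlapped between classes too. Across the 42 genes the density of these neighbours and the log2 fold change in KO had a Spearman rho of -0.05, a description over genes that share the same 8 libraries.

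Total counts were between 9344779 and 15079960 per library. Jmjd6 itself fell in KO, from 58.6 ± 5.93 to 28.7 ± 1.41 CPM as mean ± SD of 4 libraries each. CPM is the gene's count scaled to the TMM-adjusted total of its library. The log2 fold change of Jmjd6 had a 95% interval from -1.36 to -0.70 around -1.03, with adjusted p = 0.0381 by edgeR's quasi-likelihood test. Leaving out any 1 library other than Jmjd6 KO replicate 3 took the adjusted p of Jmjd6 past 0.05 (0.0986 to 0.254 by edgeR), with log2 fold changes from -1.06 to -0.99. On the first principal component Jmjd6 KO replicate 3 had a score of 83.9, and the other 7 libraries lay between -28 and 9.41. Wild type replicate 4 and Jmjd6 KO replicate 3 had 0 counts of 4 Y-linked genes and the other 6 libraries at least 3660. The 10 LSK gate markers were all detected, with summed levels of 2873 to 3625 CPM in wild type and 2841 to 3254 CPM in KO (for marker sums, scaled to the plain total), Cd34 the most abundant of them. The 10 granulocyte-monocyte markers summed to 5231 CPM in wild type replicate 1 and to 980.4 to 2402 CPM in the other 7 libraries, and the 9 erythroid markers to 1558 CPM in that library and 952 to 1062 CPM in the rest. None of the markers in the erythroid, granulocyte-monocyte, megakaryocyte, B lineage, T lineage and macrophage lists was at 0 in all libraries.

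The comparison asked whether the mRNA levels of these splicing regulators differed between Jmjd6 KO and wild type. Jmjd6 still drew 273 to 403 counts in each KO library, and the source of these reads was not tested. The values therefore compare the genotypes as labelled, not a complete absence of Jmjd6 transcript. After adjustment over all genes, 0 of the 42 were called at 0.05 by edgeR, where 0.0595% of all tested genes were. By unadjusted p under 0.05 the count was 1 of 42 (2.38%) by edgeR, against 6.06% of all tested genes. It was also 1 by DESeq2, where 914 of 13439 tested genes passed, and 1 by limma voom, where 1338 did. The gene was Rbfox2 each time, with all methods reading the same counts. Wild type and KO values overlapped in all 42 genes, where 4.19% of tested genes had groups that did not. Log2 fold changes above 0 were found for 20 of the 42 and below 0 for 22. Their median was -0.03, beside 0.00 for all tested genes. Leaving out Jmjd6 KO replicate 3 gave 12 above 0, 25 below and 5 at 0.00 after rounding, and leaving out wild type replicate 1 gave 26 above and 16 below, so the split turned with single libraries. Scaling by library size alone gave 14 above and 26 below. In these bulk samples, fewer cells of a type and less RNA per cell cannot be told apart.

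**Figure D1:**
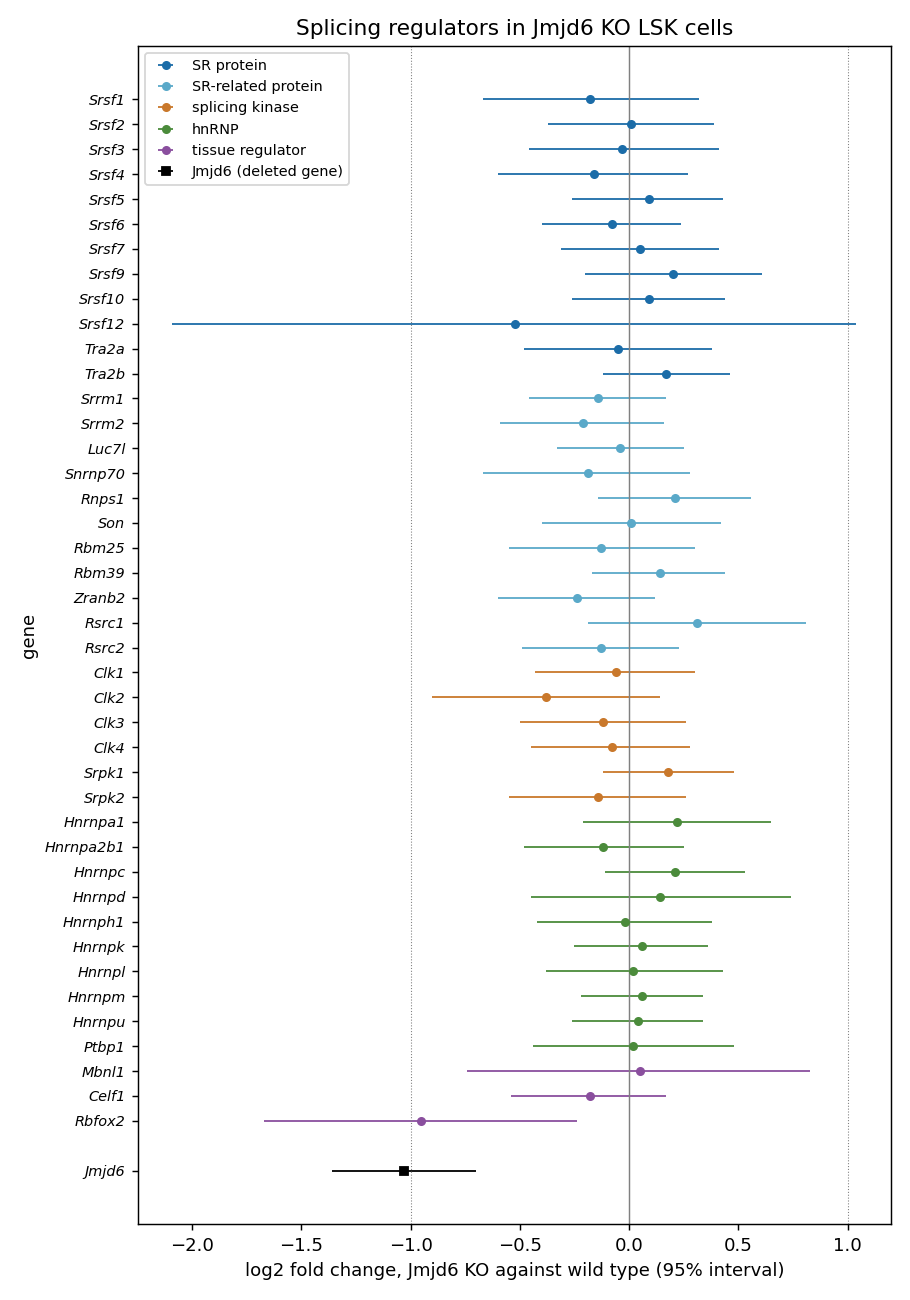
Log2 fold change of each gene, Jmjd6 KO against wild type (points) with its 95% interval from the edgeR fit (lines), coloured by class, with Jmjd6 at the bottom and dotted lines at a 2-fold change. All intervals of the 42 genes cross 0 other than that of Rbfox2, and those of Srsf12 and Rbfox2 reach past 2-fold.

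The data also set bounds on changes that went uncalled. The 95% interval of the fold change lay within 2-fold in either direction for 40 of 42 genes (95.2%), Srsf12 and Rbfox2 being the exceptions, and within 1.5-fold for 29 of 42 (69%). Over all tested genes those shares were 73.5% and 33.1%. The members are abundant, with a median of 333 CPM against 35.4 CPM for all tested genes, and the intervals were not compared at matched level. The difference between the group means was smaller than the spread between replicates (pooled SD of log2 CPM) in 35 of 42 genes, or 83.3%, against 75.3% of all tested genes.

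The SR proteins as a class gave a median log2 fold change of -0.01, 6 genes above 0 and 6 below. Summed over the class, the level was 5422 ± 367 CPM in the wild type mice and in KO 5471 ± 532 CPM (SD, n = 4), a difference within the spread. Srsf7, which binds purine-rich enhancers and takes part in mRNA export, was the most abundant of the class per transcript length, at 483 CPM per kb. It held 21.1% ± 1.78 of the class's summed CPM in wild type and 21.4% ± 2.4 in KO. Srsf7 stood at 1102, 1047, 1150.1 and 1264 CPM in wild type replicates 1 to 4 and at 1039.5, 1159, 1534 and 994 CPM in the KO replicates. The wild type values thus lay inside the KO range, which Jmjd6 KO replicates 3 and 4 bounded.

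Srsf2, known as SC35, is the near neighbour of the deleted gene. Srsf2 spans 116849901 to 116853094 of chromosome 11 (GRCm38, minus strand), with 6451 bases between it and Jmjd6. Its level was 618, 621, 632 and 688 CPM in wild type and 610.3, 648, 845 and 471 CPM in KO. The wild type mean of 639.9 CPM and the KO mean of 644 CPM differed by 0.01 on the log2 scale (95% interval -0.37 to 0.39). Levels in KO spread wider than in wild type, with Jmjd6 KO replicate 3 highest and replicate 4 lowest. Srsf2 lies wholly within the span of Mettl23 on the opposite strand and shares 655 bases with Mfsd11, and it is not known whether the counting used strand, without which reads of these genes cannot be separated.

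Tra2b, an SR-like factor that promotes exons with GAA-rich enhancers, had the smallest unadjusted p of the class, 0.215 by edgeR. It stood at 622, 555, 611 and 551 CPM in wild type and 612, 602, 731 and 694 CPM in KO, 0.17 higher on the log2 scale (SE 0.133), with adjusted p = 0.839 by edgeR. Its paralogue Tra2a gave -0.05 with a 95% interval from -0.48 to 0.38. Srsf9 held 34, 28.9, 27.5 and 31.3 CPM in wild type and 30.2, 30, 45.2 and 34.7 CPM in KO. The KO mean of Srsf9 was raised by Jmjd6 KO replicate 3, and its log2 fold change of 0.20 was 0.06 without that library.

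Srsf4, one of the longer SR proteins, gave 113, 153, 131 and 117 CPM in wild type and 126, 122, 72.9 and 138 CPM in KO. Jmjd6 KO replicate 3 was alone under 100 CPM, and the log2 fold change of -0.16 was 0.00 without it. Srsf1, the founding member known as ASF/SF2, gave -0.18, Srsf3 -0.03, Srsf5 0.09, Srsf6 -0.08 and Srsf10 0.09. Each of these 5 had an adjusted p of at least 0.892 by edgeR.

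Srsf12, an SR protein of restricted expression, was close to the limit of detection, with 15, 27, 7 and 29 counts in wild type replicates 1 to 4 and 5, 7, 37 and 2 counts in the KO replicates. The 95% interval of its log2 fold change, -0.52, ran from -2.09 to 1.04. Without Jmjd6 KO replicate 3, which held the highest count, it was -1.81, and edgeR gave an unadjusted p of 0.0116 (0.568 after adjustment). So 3 KO libraries lay at or below the lowest wild type count and 1 lay above the highest. Scaled for depth, Jmjd6 KO replicate 2 lay just above the lowest wild type library, at 0.72 against 0.703 CPM.

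**Figure D2:**
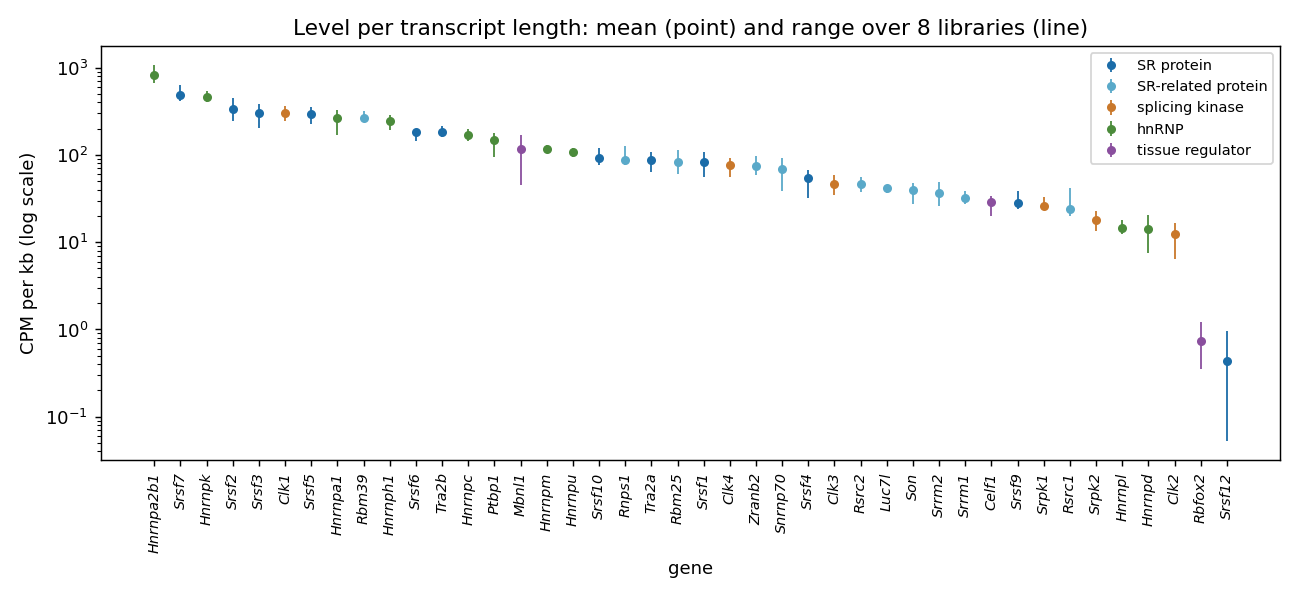
Level of each gene per kb of its longest annotated coding transcript (log scale), as the mean over 8 libraries (points) with the lowest and highest library (lines), in order of the mean and coloured by class. Hnrnpa2b1, at 819 CPM per kb, and Srsf7 lead, and Rbfox2 and Srsf12, at 0.738 and 0.43 CPM per kb, lie far below the other 40 genes.

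The SR-related proteins gave a median of -0.13, with 4 of 11 above 0. They summed to 2892 ± 235 CPM in the wild type mice and in KO to 2839 ± 294 CPM (SD, n = 4). The smallest unadjusted p in the class was that of Zranb2, a zinc finger protein that binds splice donor-like sequences, at 0.17 by edgeR. Zranb2 held 281, 193, 248 and 229 CPM in wild type and 172, 224, 233 and 174 CPM in KO. Its groups overlapped, as wild type replicates 2 and 4 lay among the KO values, and the log2 fold change was -0.24, with SE 0.165 and adjusted p = 0.833 by edgeR.

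Rsrc1, which encodes a small RS-rich protein of splice site recognition, gave the highest log2 fold change of the 42 genes, 0.31 (SE 0.228). Rsrc1 stood at 77.3, 64.4, 67.5 and 67.6 CPM in wild type and at 69.9, 67.6, 136 and 69.6 CPM in KO. The whole difference lay in Jmjd6 KO replicate 3, without which the log2 fold change was 0.00. Rnps1, which joins splicing to the exon junction complex, had the same shape, with 148, 161, 157 and 165 CPM in wild type and 168, 157, 241 and 163 CPM in KO. Its log2 fold change was 0.21, and 0.05 without Jmjd6 KO replicate 3.

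Rbm39, a cofactor of U2AF, was the most abundant SR-related gene per length, at 263 CPM per kb. It held 684, 692, 772 and 663 CPM in wild type and 684, 705, 899 and 803 CPM in KO, with overlapping groups and a log2 fold change of 0.14 (95% interval -0.17 to 0.44). Luc7l, a U1 snRNP-associated protein and a relative of reported Jmjd6 substrates, was among the steadiest genes of the set. Luc7l stood at 198, 189.9, 221 and 222 CPM in wild type and 196, 211, 221 and 179.7 CPM in KO, so that its highest and lowest libraries differed by 1.24-fold. A value of -0.04 on the log2 scale separated the groups (95% interval -0.33 to 0.25).

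Snrnp70, the U1 70K protein that defines splice donors, held 115, 131, 107 and 159 CPM in wild type and 136, 126, 67.4 and 119 CPM in KO. Its log2 fold change of -0.19 turned to 0.11 among the 6 libraries with Y-linked counts, which leave out the highest library, wild type replicate 4, and the lowest, Jmjd6 KO replicate 3. Son and Srrm2, large scaffold proteins of nuclear speckles, gave 0.01 and -0.21. The other members, Srrm1, Rbm25 and Rsrc2, lay between -0.14 and -0.13.

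The kinases gave a median of -0.10, with 1 of 6 above 0, and summed to 1103 ± 139 CPM in the wild type mice and in KO to 1058 ± 63.5 CPM (SD, n = 4). Clk1 held 50.6% ± 3.97 of that sum in wild type and 51% ± 6.09 in KO, and at 306 CPM per kb it was the most abundant kinase per length. Clk1 stood at 660.0, 438, 653 and 497 CPM in wild type and at 546, 598, 464 and 545 CPM in KO. The KO values all lay inside the wild type range, with a log2 fold change of -0.06 (95% interval -0.43 to 0.30).

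Clk2 had the lowest level and the smallest unadjusted p among the kinases, 0.141 by edgeR. It held 35.9, 28.9, 31.2 and 25.8 CPM in wild type and 30.3, 25.9, 23.8 and 13.8 CPM in KO. The log2 fold change was -0.38, with SE 0.239 and adjusted p = 0.832 by edgeR, and it was -0.19 without Jmjd6 KO replicate 4, the lowest library. Clk4, the close paralogue of Clk1, stood at 172, 133, 149 and 159 CPM in wild type and 139, 149.7, 179.9 and 109 CPM in KO, a log2 fold change of -0.08. Clk3 gave -0.12.

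The SRPK genes lay on either side of 0. Srpk1 held 113, 108, 108 and 129 CPM in wild type and 122, 127, 152 and 119 CPM in KO, a log2 fold change of 0.18 (95% interval -0.12 to 0.48). Srpk2 held 148, 86.3, 141 and 113 CPM in wild type and 108, 106, 132 and 96.8 CPM in KO, a log2 fold change of -0.14 (95% interval -0.55 to 0.26). For Srpk2 the KO values again lay inside the wild type range. Both intervals contain 0, and the difference between the paralogues was not tested.

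The hnRNPs gave a median of 0.05, with 8 of 10 above 0, but 5 of 10 when scaled by library size alone and 4 of 10 among the 6 libraries with Y-linked counts. They summed to 6212 ± 851 CPM in the wild type mice and in KO to 6349.8 ± 274 CPM (SD, n = 4). Hnrnpa2b1, which binds UAG-containing motifs, was the most abundant of the 42 genes. It held 1866, 1228, 1539 and 1252 CPM in wild type and 1386, 1448, 1148 and 1449.9 CPM in KO, a log2 fold change of -0.12 (95% interval -0.48 to 0.25). Wild type replicate 1 was the highest library for this gene and for 15 other members. Hnrnpk, a poly(C)-binding protein, stood at 1479, 1283, 1478 and 1205 CPM in wild type and 1272, 1400.3, 1593 and 1395 CPM in KO. Its 95% interval on the log2 scale, -0.25 to 0.36 around 0.06, kept Hnrnpk within 1.5-fold.

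Hnrnpc, which binds uridine tracts and keeps cryptic exons out, had the smallest unadjusted p of the hnRNPs, 0.185 by edgeR. It held 510.0, 437, 410.2 and 449.9 CPM in wild type and 417, 543, 562 and 565 CPM in KO. Apart from Jmjd6 KO replicate 1, the KO libraries lay above every wild type library, and the log2 fold change of 0.21 was 0.32 without that replicate, with the adjusted p at 0.634 by edgeR. Hnrnpa1, a general antagonist of SR proteins in splice site choice, held 618, 420.3, 514 and 321 CPM in wild type and 535, 541, 472 and 629 CPM in KO. Its log2 fold change was 0.22, and 0.40 and 0.07 without wild type replicate 1 or 4. Hnrnpa1 has processed copies elsewhere in the genome, so its count may be split.

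Of the other hnRNPs, Hnrnpm and Hnrnpu had the tightest values, with 1.22-fold and 1.25-fold between their highest and lowest libraries. Hnrnpm, which binds GU-rich intronic sites, gave 0.06, and Hnrnpu, a nuclear scaffold protein, gave 0.04. Ptbp1, the polypyrimidine tract binding protein that represses neuronal exons, gave 0.02 (95% interval -0.44 to 0.48), while Jmjd6 KO replicate 3 held 296 CPM of it against 357 to 571 CPM elsewhere. Hnrnph1 and Hnrnpl gave -0.02 and 0.02. Hnrnpd, also known as AUF1, gave 0.14, and its lowest and highest libraries were both wild type, at 50.9 and 139 CPM.

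The tissue regulators Mbnl1, Celf1 and Rbfox2 bind YGCY, GU-rich and UGCAUG motifs, respectively, and drive developmental and tissue-specific exons. Rbfox2 was the gene with the largest difference of the 42. The gene spans 77078990 to 77307004 of chromosome 15 (GRCm38, minus strand). Rbfox2 drew 76, 110, 72 and 63 counts in wild type replicates 1 to 4 and 38, 41, 32 and 50 counts in the KO replicates. In CPM these were 8.39, 7.32, 7.23 and 3.97 in wild type and 3.34, 4.22, 2.44 and 3.87 in KO. The groups overlapped by a single pair, wild type replicate 4 lying below Jmjd6 KO replicate 2.

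On average Rbfox2 stood at 6.73 ± 1.91 CPM in the wild type mice and in KO at 3.47 ± 0.773 CPM (SD, n = 4). The 95% interval of its log2 fold change, -0.95 (SE 0.326), ran from -1.67 to -0.24, and the adjusted p was 0.746 by edgeR. A two-sided exact permutation test of the difference in mean log2 CPM gave p = 0.0571, where 0.0286 is the smallest that 4 against 4 libraries allow. The unadjusted p by edgeR was 0.013 over all libraries and lay between 0.0042 and 0.0398 with each library left out in turn. Over the 16 alternatives that gave a p-value, the adjusted p was between 0.358 and 0.999, so Rbfox2 did not pass in any of them. Its log2 fold change was lowest, at -1.14, without wild type replicate 4. It was nearest 0, at -0.73, with a trend on transcript length and level removed, a setting without a p-value. The value was -0.81 without wild type replicate 1, the library with the most granulocyte-monocyte and erythroid marker RNA and also the most Rbfox2. Leaving out the highest wild type library makes a negative fold change smaller in any case, and without Jmjd6 KO replicate 3 it was also -0.81. The part of those cells in the Rbfox2 values was therefore not tested. At 0.738 CPM per kb, Rbfox2 was the second least abundant of the 42 genes.

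Mbnl1 had the widest spread among the abundant genes. It held 881, 259, 829 and 666 CPM in wild type and 690.5, 721, 956 and 351 CPM in KO, a 3.69-fold range. Wild type replicate 2 and Jmjd6 KO replicate 4 were the low libraries, 1 in each group, and the log2 fold change of 0.05 had a 95% interval from -0.74 to 0.83. Without wild type replicate 2 it was -0.22, and without Jmjd6 KO replicate 4 it was 0.26. Celf1 held 237, 221, 263 and 236 CPM in wild type and 239, 249.8, 197 and 158 CPM in KO. Its log2 fold change was -0.18 (95% interval -0.54 to 0.17), with Jmjd6 KO replicates 3 and 4 below all wild type libraries and replicates 1 and 2 among them.

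**Figure D3:**
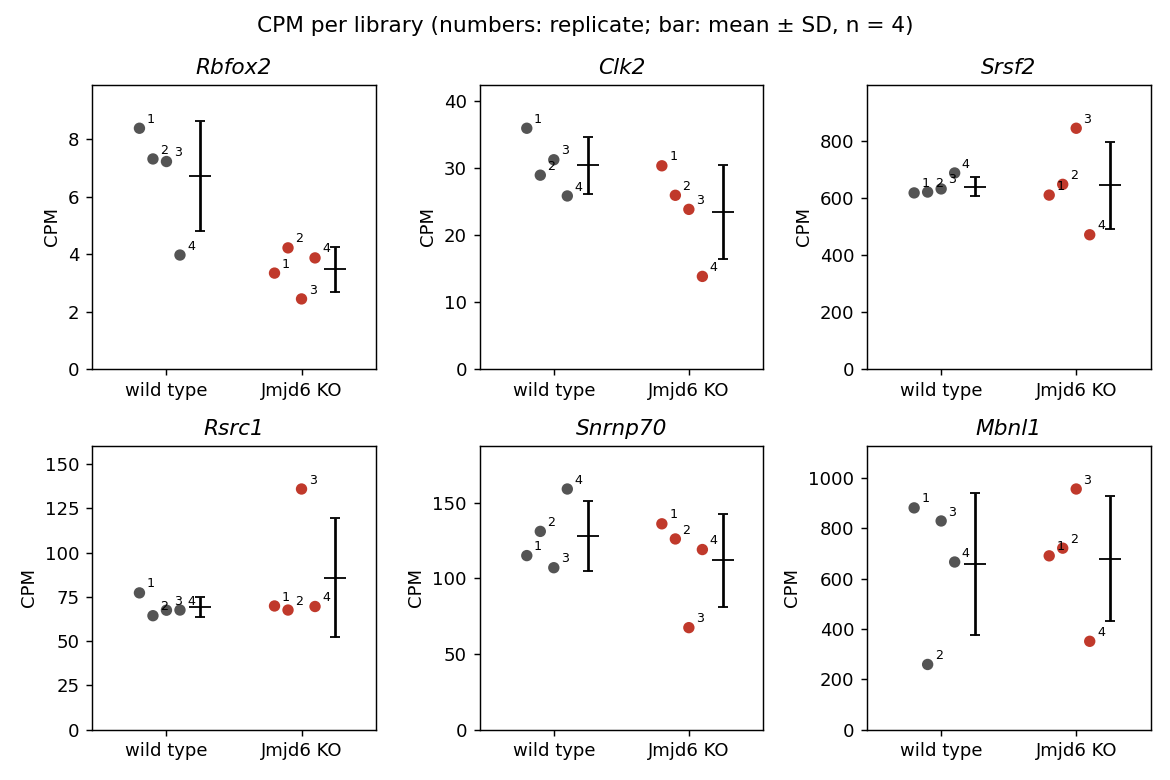
CPM of 6 genes in each library (dots, numbered by replicate) with the group mean and SD (bars, n = 4 per group). Rbfox2 overlaps between groups only through wild type replicate 4, Rsrc1 differs only through Jmjd6 KO replicate 3, and Mbnl1 is low in wild type replicate 2 and Jmjd6 KO replicate 4.

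Single libraries stood apart across classes. Jmjd6 KO replicate 3 was the highest library for 17 of the 42 genes and the lowest for 7, while over all tested genes it was highest for 24.5% and lowest for 27.7%. It was highest or lowest for 52.2% of all tested genes against 57.1% of the members. Wild type replicate 1 was highest for 16 members and lowest for 1, while over all tested genes it was highest for 14.1% and lowest for 11.8%. Jmjd6 KO replicate 4 was lowest for 14 members, and wild type replicate 2 for 9, beside 14.5% and 13.7% of all tested genes. Jmjd6 KO replicate 2 stayed near the middle, being highest for 1 gene and lowest for 0. Together the 42 genes took between 1.47% and 1.79% of all counts, lowest in Jmjd6 KO replicate 4 and highest in wild type replicate 1.

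**Figure D4:**
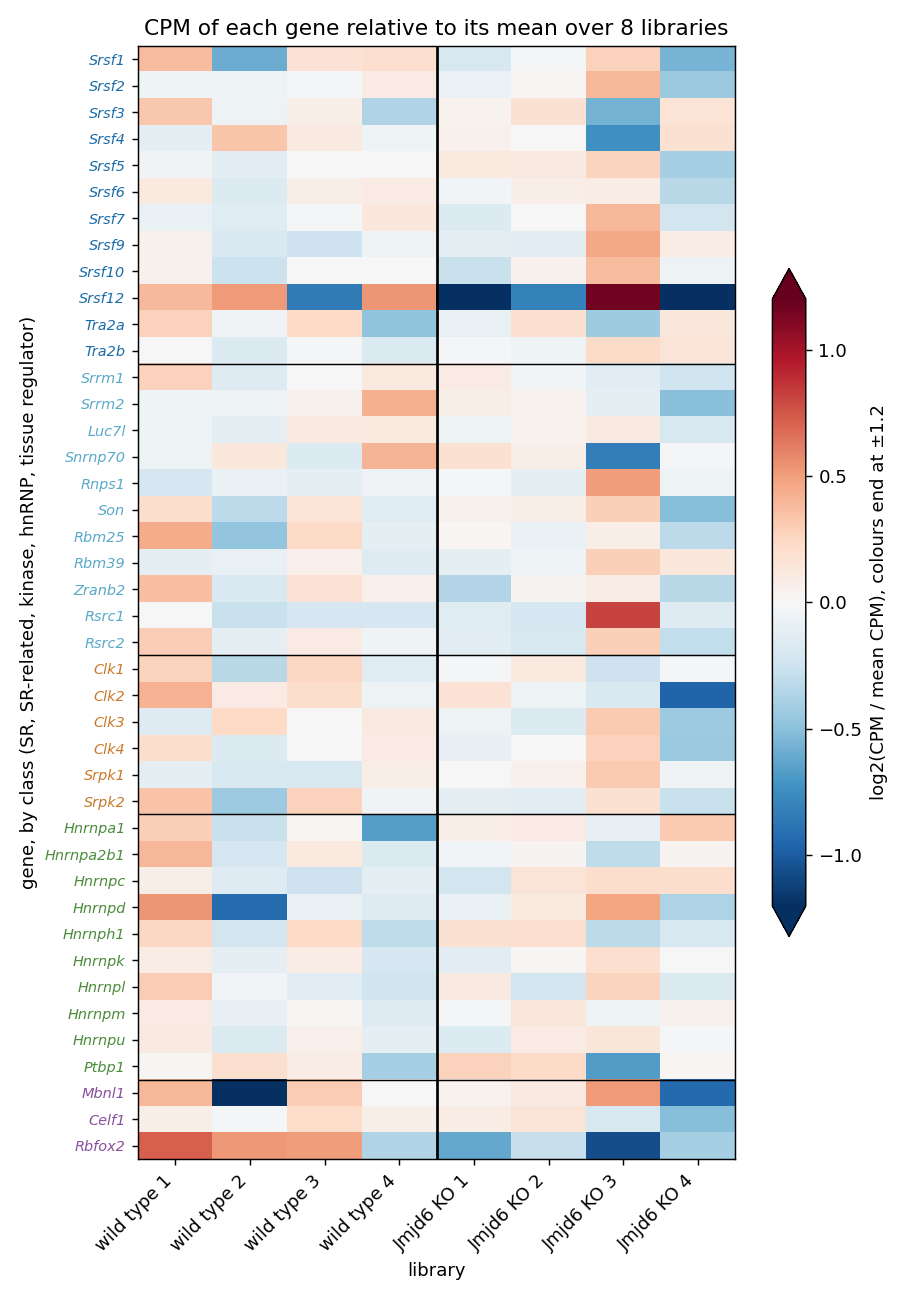
CPM of each gene in each library relative to the gene's mean over the 8 libraries, on a log2 scale (red above, blue below; colours end at ±1.2), with genes ordered by class and a vertical line between wild type and KO. Jmjd6 KO replicate 3 and wild type replicate 1 are mostly red, wild type replicate 2 and Jmjd6 KO replicate 4 mostly blue, and no class changes colour at the line between genotypes.

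Deviations in some libraries ran along the base composition of the transcripts. In wild type replicate 2, Mbnl1 (39.7% GC) and Hnrnpd (41.7% GC) were furthest below their means, whereas Snrnp70 (58.5% GC) was above its mean. The deviation of a gene from its mean over libraries correlated with GC content across the 42 genes at a Pearson r of 0.53 in that library. The r was -0.31 in Jmjd6 KO replicate 3 and -0.30 in wild type replicate 1, 0.29 in Jmjd6 KO replicate 1, and between -0.19 and 0.14 in the other 4 libraries, so either sign occurred in both genotypes. In Jmjd6 KO replicate 3 Rbfox2 (51.5% GC), Snrnp70 and Srsf4 (56.8% GC) were furthest below their means, and Srsf3 and Hnrnpa2b1 (43.9% GC) also had their lowest library there. Over 13187 tested genes with an annotated transcript the values were 0.44 in wild type replicate 2, -0.24 in wild type replicate 1 and -0.22 in Jmjd6 KO replicate 3. With log2 transcript length, the r over those genes was -0.30 in Jmjd6 KO replicate 4, -0.18 in Jmjd6 KO replicate 3 and 0.01 to 0.26 elsewhere. Across the 42 genes it went from -0.25, in wild type replicate 2 and Jmjd6 KO replicate 4, to 0.34 in wild type replicate 3. These correlations describe single libraries over genes that are not independent. Rbfox2 was above its mean in wild type replicate 2, and without that library its log2 fold change was -0.91, and -0.81 without Jmjd6 KO replicate 3. Across the 42 genes GC content and the log2 fold change had a Spearman rho of -0.10. With transcript length the rho of the log2 fold change was -0.16, and with level per kb 0.35. These values describe genes that share the same libraries and were not tested.

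**Figure D5:**
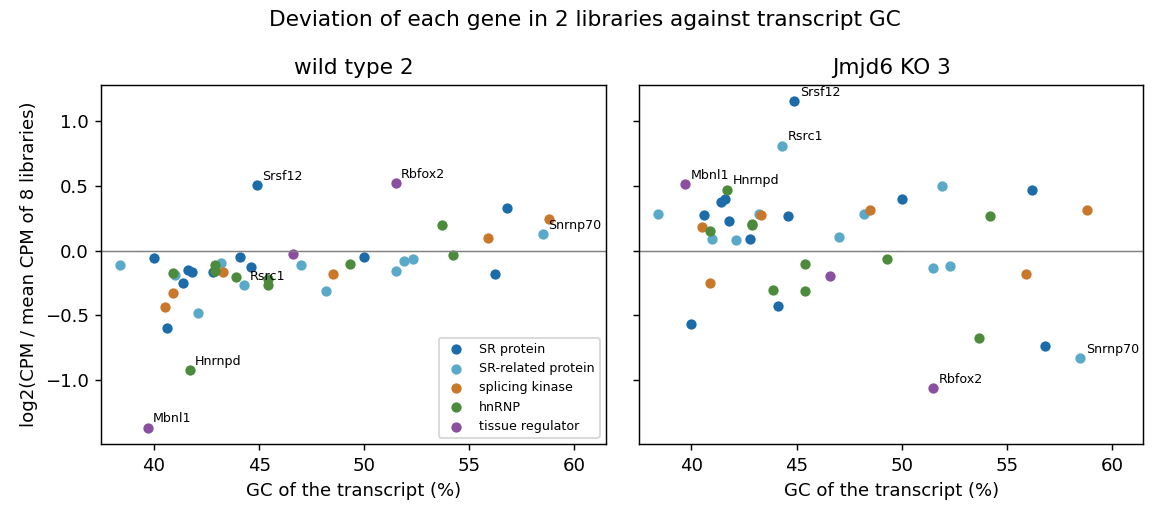
Deviation of each gene from its mean over 8 libraries (log2 of CPM over mean CPM) against the GC content of its longest coding transcript, in wild type replicate 2 (left) and Jmjd6 KO replicate 3 (right), coloured by class. Mbnl1 and Hnrnpd are low in the left panel and high in the right, Snrnp70 is low only in the right, and other low-GC genes such as Srsf3 (40% GC) are low in the right.

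Most members shared an annotation feature that their choice had not used, and its share among other splicing regulators was not compared. At least 1 transcript subject to nonsense-mediated decay was annotated for 32 of 42 genes (76.2%), against 29.3% of the 12167 tested protein-coding genes, and at least 1 retained-intron transcript for 36 of 42 (85.7%), against 59.6%. Well-studied and abundant genes tend to have more annotated isoforms, and the members had a median of 11.5 transcripts against 5. All 6 kinases carried both kinds, Clk1 and Clk4 with 7 retained-intron transcripts each, and Rbm39 had the most decay transcripts, 8. The tissue regulators had no annotated decay transcript. Since the counts are totals per gene, a shift between these isoforms would not show in the values given here, and splicing itself was not analysed here.

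A list of 75 further splicing regulators was read in the same fit, of which 67 passed the filter. None was called over all genes by edgeR, and 3 (4.48%) had an unadjusted p under 0.05, against 6.06% of all tested genes. Of the list, 22 lay above and 45 below 0, with a median of -0.11. Over all tested genes 6666 lay above and 6773 below, with a median of 0.00. Whether the split of this list holds with single libraries left out or with other scaling was not tested. Tia1, a U-rich binding protein that helps U1 at weak donors, held 256, 227, 276 and 263 CPM in wild type and 206, 206, 229 and 169 CPM in KO, a log2 fold change of -0.34 (adjusted p = 0.786 by edgeR). Nktr, an RS-rich cyclophilin, gave -0.41. Pnn, a speckle protein that works with Rnps1, held 215, 182, 179.6 and 189.6 CPM in wild type and 169, 170.0, 132 and 147 CPM in KO, and was the single gene of the list whose groups did not overlap (1.49%, against 4.19% of all tested genes). Its log2 fold change was -0.31, with SE 0.139 and adjusted p = 0.811 by edgeR. Ppp1ca, a phosphatase subunit, Ppil4 and Ewsr1 gave 0.24, -0.26 and 0.31, with adjusted p of at least 0.832 by edgeR.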

How the data were processed

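PolyA RNA of sorted LSK cells was sequenced from 4 wild type and 4 Jmjd6 KO mice, 1 library per mouse. The deposited values are whole-number counts per gene symbol. Reads were aligned with HISAT2 to mm10, per the submitters' processing notes. The HISAT2 version, counting tool, annotation and strand setting were not given in the sources used. Library totals ranged from 9344779 to 15079960 counts. Replicates differed beyond sampling noise (chi-square over its degrees of freedom was 6.56 to 86.9), so each counted as its own sample.

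KO was tested against wild type with edgeR 4.0.16's quasi-likelihood test (R 4.3.3) on all 8 libraries without covariates, after TMM scaling and filterByExpr (min.count 10, min.total.count 15). Benjamini-Hochberg adjustment covered all 13439 genes tested, with calls under 0.05. Standard errors and 95% intervals come from that fit, and log2 CPM for the spread used a prior count of 2. Transcript length, GC content, codons, isoforms and coding sequences come from GENCODE M21 (GRCm38, the build mm10 names): the longest coding transcript gave length and GC, and the longest coding sequence the codons. The code was tested on simulated counts. Alternatives were DESeq2 size factors, library size alone, no filter, a filter of CPM above 1 in 4 or more libraries, the replicate number as a block, each library left out, DESeq2 1.42.0, limma 3.58.1 voom with sample weights, the 6 libraries with Y-linked counts, and removal of a loess trend (span 0.5) on length and level.

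The members and lists were chosen with earlier results of these data known. The rule for per-library values took, in each class, the 3 genes with the smallest unadjusted p and the 2 most abundant per length, any gene called or with groups that did not overlap, Jmjd6, and the 6 other regulators with the smallest unadjusted p, of which Tia1 and Pnn are given by library. Srsf12, Luc7l, Snrnp70, Ptbp1 and Hnrnpd were added after their values were seen. Without strand, reads of the 10 members that overlap a protein-coding gene on the opposite strand may not have been told apart from it.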

Additional observations from a re-analysis of the deposited data

Results flagged for a closer look

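Among 86 groups of 4 libraries (42 members and Jmjd6, each in both genotypes), 4 held a library far from the other 3 by Dixon's criterion, where chance gives about 1 in 20 groups. Rsrc1 stood at 136 CPM in Jmjd6 KO replicate 3, against 67.6 to 69.9 CPM in the other KO libraries. Rnps1 stood at 241 CPM in the same library, against 157 to 168 CPM. Hnrnpc was low in Jmjd6 KO replicate 1, at 417 CPM against 543 to 565 CPM. Srsf12 was low in wild type replicate 3, at 0.703 CPM against 1.66 to 1.83 CPM, where that library held 7 counts.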

How the results depend on the processing

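Of the 42 members, 0 were called in each of the 16 alternatives that gave p-values, with 1 at an unadjusted p under 0.05, or 2 without Jmjd6 KO replicate 3. Over all genes, between 535 (replicate block) and 1338 (limma voom) passed that unadjusted threshold. Class medians moved by less than the spread between replicates. Of 713 member values, 78 had the other sign, 72 of them within 1 SE of the reported value and so counted as unchanged. The other 6 were Rbm39 with limma voom (-0.02), Rsrc1 without Jmjd6 KO replicate 3 (0.00) and in the 6 libraries with Y-linked counts (-0.02), Snrnp70 with limma voom (0.06) and in those 6 libraries (0.11), and Srsf5 with the trend removed (-0.08); the cause was not tested. Leaving out single libraries, Rsrc1 ranged from 0.00 to 0.44. Srsf12 did not pass the filter in the 6 libraries.

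Over all genes, 8 were called, against 3 with the replicate block, 66 with DESeq2, 31 with limma voom, 4 in the 6 libraries and 2 to 8 with single libraries left out. Jmjd6 lost its call with the replicate block (-1.02, adjusted p = 0.402 by edgeR) and in the 6 libraries (-1.02, adjusted p = 0.105 by edgeR), and ranged from -1.06 to -0.99 with single libraries left out. The sample titles do not say whether the replicate numbers pair the samples. Deviations of same-numbered libraries correlated at 0.0322, -0.0122, -0.184 and -0.192, which cannot decide it with 4 libraries per group. Depth limits Srsf12, with 2 to 37 counts per library, and Rbfox2, with 32 to 110.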
